A study of Homo sapiens with 16 samples.

Results

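The transcripts examined here encode 10 surface antigens that are discussed as targets or markers in acute myeloid leukemia (AML), namely CD33, CD34, CD38, CD44, CD47, CD52, CLEC12A, IL3RA, HAVCR2 and CD70. They were chosen by name, with earlier results of these data known. The table of 62700 gene identifiers holds them in 11 rows, since IL3RA is listed under 2 identifiers. RNA-seq was performed in OCI-AML3, an established human AML cell line, and the study asked how the RARA-selective agonist AM80 (tamibarotene) compares with all-trans retinoic acid (ATRA), which activates all retinoic acid receptors. The 16 libraries comprised 4 of untreated cells and 3 for each treatment of 3 h, which was ATRA, AM80, ATRA_GSK-LSD1_MB3 or AM80_GSK-LSD1_MB3. Each retinoid and GSK-LSD1 were used at 0.1 µM, and MB3 was used at 100 µM. GSK-LSD1 inhibits the histone demethylase LSD1, MB3 inhibits the acetyltransferase GCN5, and both were present in the groups called "with inhibitors" below. A group with the inhibitors but no retinoid is not part of the design, so an effect of the inhibitors is only seen beside a retinoid. No group is labelled as vehicle-treated, so a change against untreated cells includes any effect of solvent, handling or time. All libraries derive from a single cell line, and nothing in the labels states whether the numbered repeats were separate cultures, so p-values measure the spread between these libraries.

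CD38 is an ectoenzyme that consumes NAD+ and is the target of antibodies used in multiple myeloma, and its gene is a known target of retinoic acid in myeloid cells. CD33 is a sialic acid-binding lectin targeted by an antibody-drug conjugate in AML, and CLEC12A is an inhibitory C-type lectin of myeloid cells. CD47 binds SIRPA on macrophages and restrains phagocytosis, CD70 is the ligand of CD27, CD44 binds hyaluronan, and HAVCR2 (TIM-3) binds galectin-9. IL3RA is the alpha chain of the interleukin-3 receptor, CD34 marks stem and progenitor cells, and CD52 is a small glycoprotein of lymphocytes.

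Of the 10 antigens, 6 averaged 10 normalized counts or more and were tested (CD33, CD38, CD44, CD47, CD70 and CLEC12A), and 4 fell below that limit (CD34, CD52, HAVCR2 and IL3RA). A normalized count is the number of reads on a gene divided by the size factor of its library. A gene was called when its adjusted p-value (limma, Benjamini-Hochberg over 14643 genes) was under 0.05 and its fold change was over 1.5. Log2 fold changes are on the log2(normalized count + 1) scale and are given with their standard error (SE).

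The promoters of CD38 and CLEC12A are shown because these were the antigens called with both retinoids. RefSeq (GRCh38.p14) gave a start for 8 of the 10 genes. The 250 bases before it are printed 5′ to 3′, for CD38 at chr4:15778078-15778327 (plus strand) and for CLEC12A at chr12:9971159-9971408 (plus strand). Capitals mark the forms AGGTCA and AGTTCA of the retinoid receptor motif, searched on both strands. Forms that begin with G were not searched.
CD38: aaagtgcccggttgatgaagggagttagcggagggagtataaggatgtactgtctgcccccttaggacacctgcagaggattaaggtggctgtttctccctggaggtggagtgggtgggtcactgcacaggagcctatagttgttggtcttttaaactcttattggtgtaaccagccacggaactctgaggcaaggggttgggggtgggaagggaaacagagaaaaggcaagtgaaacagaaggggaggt
CLEC12A: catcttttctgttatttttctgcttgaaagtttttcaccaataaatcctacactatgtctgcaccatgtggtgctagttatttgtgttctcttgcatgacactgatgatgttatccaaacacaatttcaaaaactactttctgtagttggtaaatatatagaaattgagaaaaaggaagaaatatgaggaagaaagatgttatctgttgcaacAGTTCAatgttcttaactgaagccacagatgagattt
The CD38 window held no match to these forms and 3 CpG sites, and 52.4% of its bases were G or C. It does hold GGGTCA, a form that was not searched. The CLEC12A window held 1 match, which began 37 bases before the start, and 32.8% of its bases were G or C. Over 35116 promoter windows of this length, 19.7% held either form and the median share of G or C was 58%. Among the 8 antigens searched, either form was found in 4 (CD44, CD47, CD52 and CLEC12A). A direct repeat of these forms with a gap of 5 bases, the classical arrangement, was found in 0 of the 8 and in 0.0142% of all windows. A retinoic acid response element of CD38 has been described in its first intron, which lies outside the window.

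The libraries held 11963898 to 33789718 counted reads, and 100% of the values in each library were whole reads once the size factor was undone. All 18 pairs of libraries within a group differed by more than counting noise, so none was counted as a duplicate. The chi-square per degree of freedom was up to 23.37 in pairs with untreated replicate 4 and up to 25.94 with AM80 replicate 2. Every pair with either library stood above all other pairs (2.755 to 6.233). Untreated replicate 4 also had the highest CD70 value of its group (1387), and AM80 replicate 2 the lowest of its group (821.2). Why these libraries stood apart was not tested. The retinoid-induced genes CYP26A1, CYP26B1, RARB and DHRS3 were called higher in 4 of 4 retinoid groups against untreated cells. DHRS3, for example, had 27.3 ± 6.93 normalized counts (SD, n = 4) in untreated cells and 2339 ± 55.4 (SD, n = 3) with ATRA. Myeloid genes were present (means over all libraries of 4128 for SPI1, 5984 for CEBPA and 9839 for LYZ), while MPO was low at 37.7. The T cell genes CD3D and CD2, the B cell gene MS4A1 and the erythroid gene HBA1 were listed at 0 in every library, and the neural cell adhesion molecule NCAM1 (CD56) averaged 2617. In these bulk libraries, fewer cells carrying a transcript and less transcript per cell cannot be told apart. The values are transcript levels, and surface protein was not measured here.

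CD38 was the antigen that rose in all 4 treated groups. Untreated libraries had 840.9, 975.3, 916.7 and 833.2 normalized counts (892 ± 67.4, SD, n = 4). With ATRA the values were 4952, 5061 and 4860 (4957 ± 101, SD, n = 3), and with AM80 they were 4514, 5151 and 4735 (4800 ± 324, SD, n = 3). The lowest treated library was thus far above the highest untreated library, and the ATRA and AM80 libraries overlapped.

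The increase in CD38 was 5.57-fold with ATRA (log2 2.48, SE 0.07, adjusted p = 3.60e-17) and 5.38-fold with AM80 (log2 2.43, SE 0.07, adjusted p = 5.02e-17). Ranked from the most increased of 14643 genes, CD38 was number 124 with ATRA and 123 with AM80. Called genes made up 9.45% of all genes with ATRA and 10.2% with AM80. Of the 6 tested antigens, 1 was called higher (CD38) and 1 lower (CLEC12A) in each of these comparisons, and their median log2 fold change was -0.25 and -0.21, beside medians over all genes of -0.02 and -0.01.

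With the inhibitors, CD38 was at 5529, 5568 and 5947 normalized counts beside ATRA (5681 ± 231, SD, n = 3). It was at 4829, 5028 and 5266 beside AM80 (5041 ± 219, SD, n = 3). Against untreated cells this was 6.38-fold (log2 2.67, SE 0.07, adjusted p = 9.74e-18) and 5.66-fold (log2 2.50, SE 0.07, adjusted p = 2.99e-17). All 3 libraries of ATRA with inhibitors exceeded all 3 libraries of ATRA alone, whereas those of AM80 with and without inhibitors overlapped.

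The step from retinoid to combination was therefore small for CD38. It was 1.15-fold beside ATRA (log2 0.20, SE 0.07, adjusted p = 0.0261), under the 1.5-fold limit, and 1.05-fold beside AM80 (log2 0.07, SE 0.07, adjusted p = 0.442). Scaled to total reads, the same differences were log2 0.05 (adjusted p = 0.620) and log2 -0.05 (adjusted p = 0.617). With this scaling the median of all genes was -0.13 to -0.19 in the 4 comparisons of inhibitor groups with untreated cells or with the retinoid alone.

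**Figure D1:**
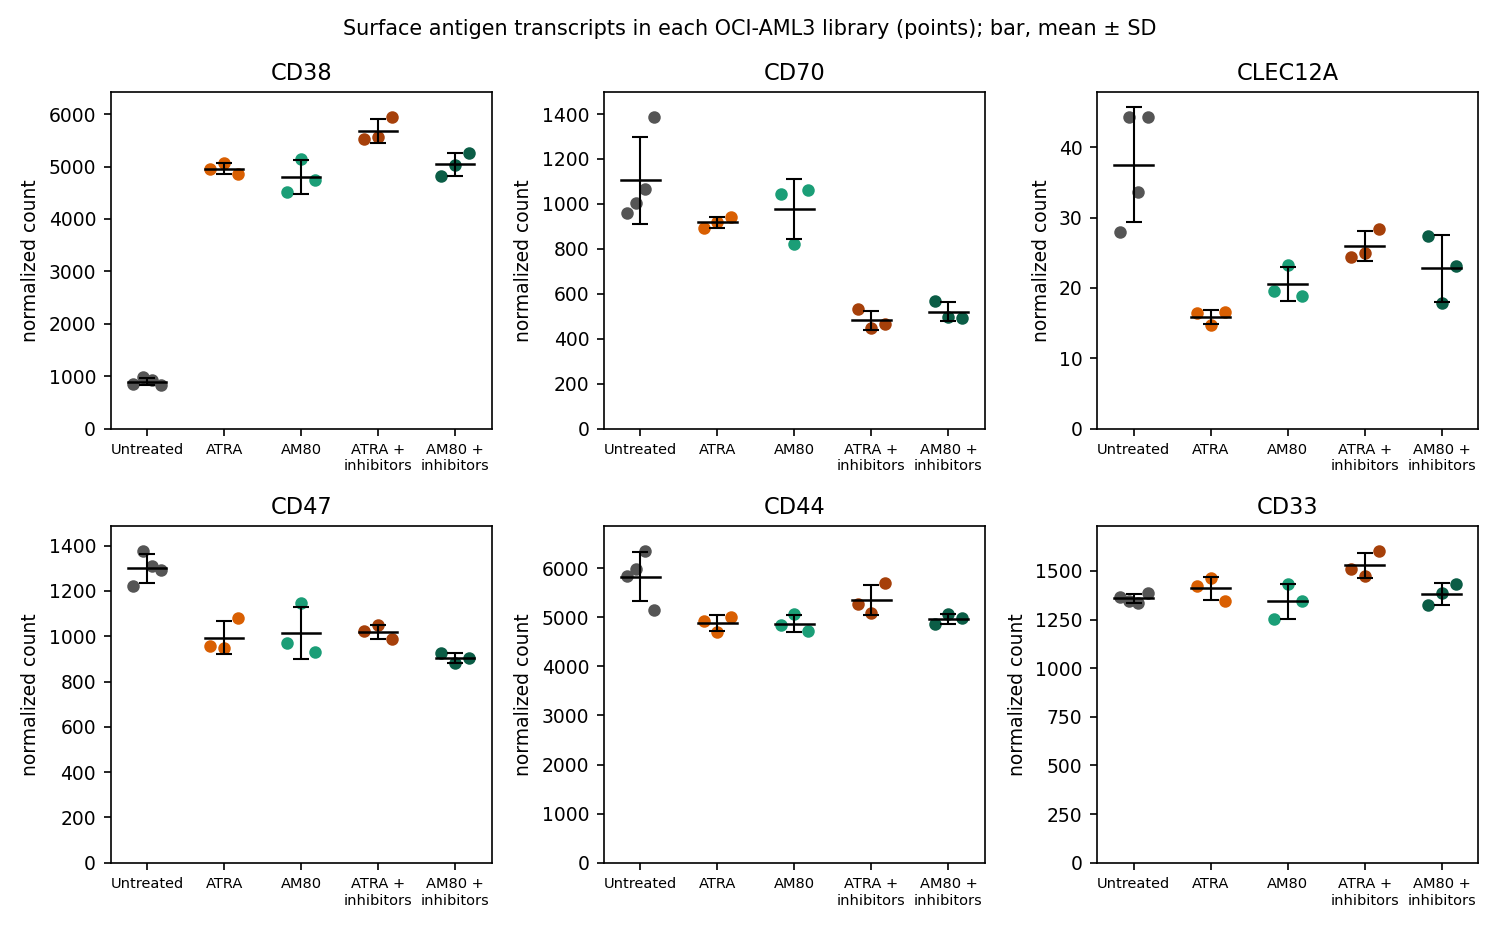
Normalized counts (vertical axes, from 0) of the 6 tested antigens in the 5 groups; each point is a library and the bars give mean ± SD (n = 4 for untreated, n = 3 otherwise). CD38 libraries lie at 833.2 to 975.3 in untreated cells and at 4514 to 5947 in all treated cells, CD70 is lowest in both groups with inhibitors, and CLEC12A lies below all untreated libraries except with ATRA and inhibitors, where the highest library (28.4) exceeds the lowest untreated library (27.9).

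CD70 was lower with the inhibitors. Untreated libraries had 959.4, 1003, 1067 and 1387 normalized counts (1104 ± 194, SD, n = 4). ATRA libraries had 890.8, 918.7 and 942.1 (917 ± 25.7, SD, n = 3), and AM80 libraries had 1043, 821.2 and 1062 (975 ± 134, SD, n = 3). The differences from untreated cells did not pass the test with either retinoid alone (ATRA log2 -0.25, SE 0.11, adjusted p = 0.106, and AM80 log2 -0.17, SE 0.11, adjusted p = 0.265).

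With the inhibitors CD70 was at 531.1, 448.9 and 463.7 normalized counts beside ATRA (481 ± 43.8, SD, n = 3) and at 568.9, 496.2 and 493.1 beside AM80 (519 ± 42.9, SD, n = 3). All 6 libraries with inhibitors lay below all 10 libraries without them. Relative to the retinoid alone, CD70 was 1.91-fold lower beside ATRA (log2 -0.93, SE 0.12, adjusted p = 2.78e-06) and 1.87-fold lower beside AM80 (log2 -0.90, SE 0.12, adjusted p = 5.01e-06). Relative to untreated cells it was 2.27-fold lower (log2 -1.19, SE 0.11, adjusted p = 1.68e-08) and 2.11-fold lower (log2 -1.07, SE 0.11, adjusted p = 6.75e-08).

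The inhibitors called 19.5% of all genes beside ATRA and 15.7% beside AM80. Against untreated cells, ATRA with inhibitors called 29.1% of all genes, and AM80 with inhibitors called 26.0%. Among the 6 tested antigens, 1 was called higher and 1 lower beside ATRA (CLEC12A and CD70), and 1 was called lower beside AM80 (CD70). Against untreated cells, ATRA with inhibitors gave 1 higher (CD38) and 1 lower (CD70), and AM80 with inhibitors gave 1 higher (CD38) and 2 lower (CD70 and CLEC12A).

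CLEC12A was called lower with both retinoids, at low counts. Untreated libraries had 27.9, 44.3, 33.6 and 44.3 normalized counts (37.5 ± 8.17, SD, n = 4), from 20 to 48 reads each. ATRA libraries had 16.4, 14.7 and 16.6 (15.9 ± 1.05, SD, n = 3) and AM80 libraries 19.5, 23.3 and 18.8 (20.5 ± 2.42, SD, n = 3), from 17 to 45 reads each. Neither retinoid group overlapped with untreated cells. CLEC12A was 2.25-fold lower with ATRA (log2 -1.17, SE 0.21, adjusted p = 0.000266) and 1.77-fold lower with AM80 (log2 -0.82, SE 0.21, adjusted p = 0.00562).

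In the groups with inhibitors, CLEC12A stood at 24.4, 25.0 and 28.4 normalized counts beside ATRA (25.9 ± 2.16, SD, n = 3) and at 27.4, 17.9 and 23.2 beside AM80 (22.8 ± 4.78, SD, n = 3). It was 1.61-fold lower than in untreated cells with AM80 and inhibitors (log2 -0.69, SE 0.21, adjusted p = 0.00930), a call that was lost without AM80 with inhibitors replicate 2 (log2 -0.53, adjusted p = 0.0652). The difference was not called with ATRA and inhibitors (log2 -0.49, SE 0.21, adjusted p = 0.0502), but it was without untreated replicate 1 (log2 -0.62, adjusted p = 0.0183). Scaled to total reads, this difference was also called (log2 -0.64, adjusted p = 0.0131). Between ATRA alone and ATRA with inhibitors, CLEC12A was 1.60-fold higher (log2 0.67, SE 0.23, adjusted p = 0.0183). This call was lost without ATRA replicate 2 (log2 0.62, adjusted p = 0.0599), without ATRA with inhibitors replicate 3 (log2 0.61, adjusted p = 0.0635) and with DESeq2 (log2 0.70, adjusted p = 0.0627). Beside AM80 the same step was log2 0.13 (SE 0.23, adjusted p = 0.678), and the difference between the steps did not pass the test (log2 -0.54, SE 0.32, adjusted p = 0.420).

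**Figure D2:**
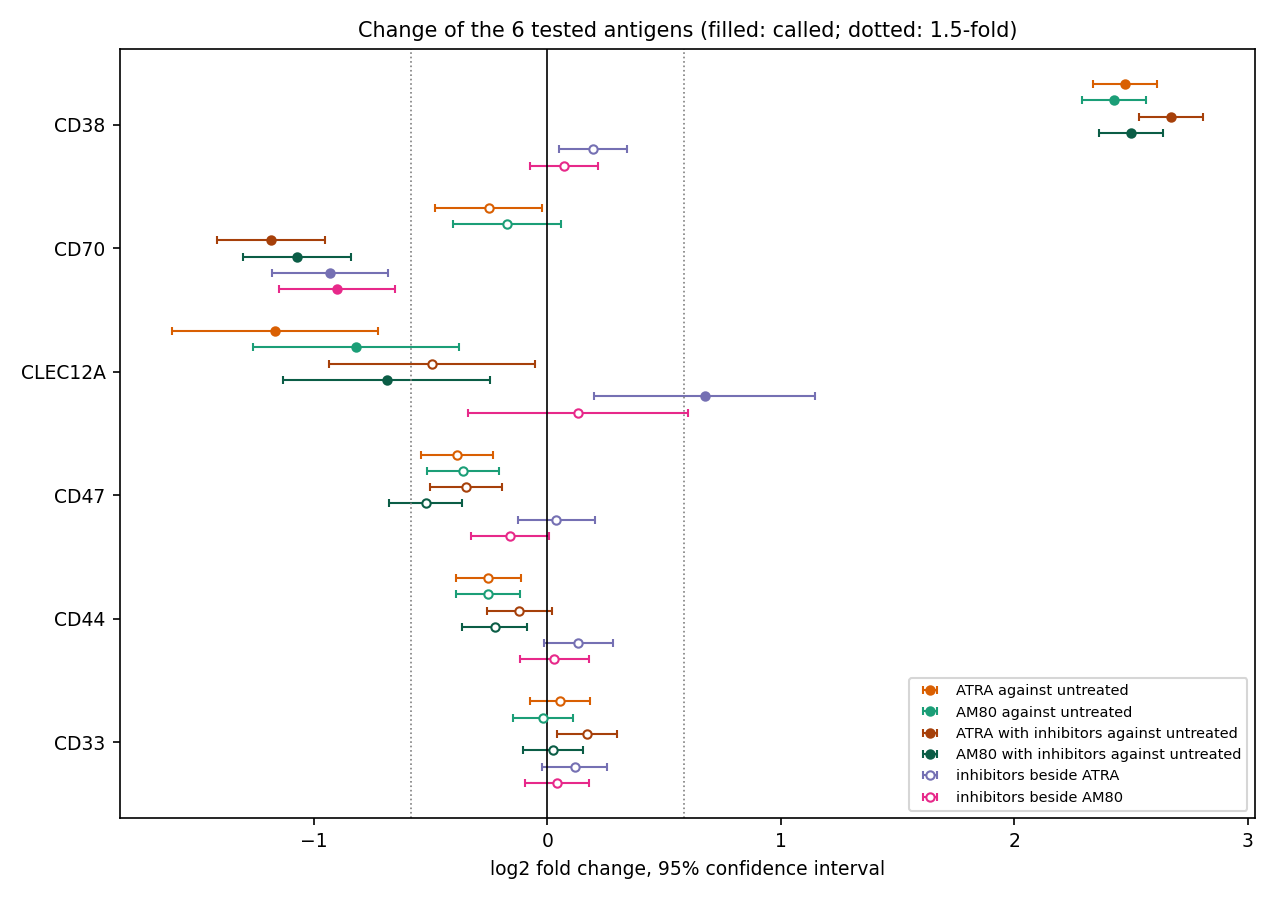
Log2 fold change (horizontal axis) of the 6 tested antigens in 6 comparisons, with 95% confidence intervals from limma; filled points were called and dotted lines mark 1.5-fold. CD38 lies between 2.43 and 2.67 in the 4 comparisons with untreated cells and near 0 on adding inhibitors, and CD70 lies between -1.19 and -0.90 where inhibitors were present.

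CD47 was lower in all 4 treated groups by less than 1.5-fold. Its untreated libraries had 1220, 1375, 1310 and 1292 normalized counts (1299 ± 63.8, SD, n = 4). The other libraries lay between 881.0 and 1145, below every untreated library. The group means were 994 ± 74.5 with ATRA and 1014 ± 115 with AM80. In the presence of the inhibitors they were 1019 ± 31.4 and 904 ± 22.6, respectively (SD, n = 3 each). In this order the log2 fold changes were -0.39 (adjusted p = 0.000477), -0.36 (adjusted p = 0.000830), -0.35 (adjusted p = 0.000426) and -0.52 (adjusted p = 5.31e-06). Scaled to total reads, the last of these was -0.71 (adjusted p = 1.14e-07), and with quantile normalization it was -0.63 (adjusted p = 9.1e-07). Both passed the limit.

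CD44 had the highest normalized counts of the antigens in untreated cells, at 5836, 5980, 6344 and 5147 (5827 ± 501, SD, n = 4). With ATRA it was 4875 ± 164 and with AM80 4870 ± 177 (SD, n = 3 each), and the highest of these 6 libraries (5060) was below the lowest untreated library. The log2 fold changes of -0.25 (adjusted p = 0.00716) and -0.26 (adjusted p = 0.00599) were under the limit. With the inhibitors CD44 was 5348 ± 306 beside ATRA (log2 -0.12 against untreated cells, adjusted p = 0.124) and 4968 ± 101 beside AM80 (log2 -0.23, adjusted p = 0.00684; SD, n = 3 each). Both values depended on the scaling. For ATRA with inhibitors, CD44 was at log2 -0.27 scaled to total reads (adjusted p = 0.00271) and -0.32 with quantile normalization (adjusted p = 0.000454), and for AM80 with inhibitors at -0.41 (adjusted p = 5.18e-05) and -0.46 (adjusted p = 1.04e-05), all under the fold limit.

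CD33 stayed within a narrow range of 1254 to 1602 normalized counts over the 16 libraries. The mean was 1359 ± 23.6 without treatment (SD, n = 4), 1410 ± 61.5 for ATRA and 1343 ± 89.0 for AM80 (SD, n = 3 each). In the presence of the inhibitors it was 1528 ± 66.3 beside ATRA and 1381 ± 55.2 beside AM80 (SD, n = 3 each). Against untreated cells the log2 fold change was 0.05 with ATRA (95% confidence interval -0.08 to 0.18) and -0.02 with AM80 (-0.15 to 0.11), so changes of 1.5-fold lay outside both intervals. It was 0.17 with ATRA and inhibitors (adjusted p = 0.0236), where scaling to total reads gave 0.02 (adjusted p = 0.801). With AM80 and inhibitors it was 0.02 (adjusted p = 0.770), and the other scaling turned its sign (-0.16, adjusted p = 0.0424).

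The remaining antigens were at or near the limit of detection. CD34 had 25 reads in all 16 libraries together, with 0 to 5 per library, and HAVCR2 had 27 reads, with 0 to 4 per library. The span of HAVCR2 overlaps that of MED7, which is transcribed from the same strand and averaged 245 normalized counts. What this overlap did to the count of HAVCR2 was not tested. CD34 had 1 read in each untreated library and 4, 3 and 2 reads in the libraries of AM80 with inhibitors, and tested without the limit on low counts it was not called there (adjusted p = 0.179 against untreated cells). A count of 0 allows up to 3 reads, or 1.55 to 4.18 normalized counts depending on the library, so differences in CD34 and HAVCR2 were not detectable at this depth. These limits cover counting error only. CD52 had 1 read in 1 library. It overlaps UBXN11, which is transcribed from the opposite strand and averaged 394 normalized counts, and the strand setting of the counting is not given in the sources used here.

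IL3RA was listed at 0 in all 16 libraries under both of its identifiers. It lies in the pseudoautosomal region shared by the X and Y chromosomes, and 35 gene symbols of the table carry a pair of identifiers in this way. Of these, 34 had no read in any library, among them SLC25A6, an ADP/ATP carrier that every cell uses, and the other (CD99) had 2 reads. The zeros of IL3RA therefore give no level for the interleukin-3 receptor alpha chain in these cells.

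To compare levels between genes, reads were divided by exon length (GENCODE release 29) and by the depth of the library, as reads per kb of exon per 1e6 counted reads. The length covers all annotated exons of a gene, not the transcripts expressed here, and the order of genes depends on it. In untreated cells, on this scale, CD70 (42.6 ± 6.29) and CD44 (34.5 ± 3.63) were highest, and their libraries overlapped at 37.5 to 37.7. They were followed by CD33 (13.5 ± 0.222), CD47 (9.36 ± 0.558) and CD38 (7.71 ± 0.723), which did not overlap with each other, and by CLEC12A (0.683 ± 0.144; SD, n = 4 each). HAVCR2 and CD34 were at 0.0381 and 0.00750.

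The order differed after treatment. With ATRA, CD38 (42.8 ± 1.75) came first, above CD70 (35.4 ± 1.02) and CD44 (28.8 ± 0.397), with no overlap between them. With AM80, CD38 (39.8 ± 3.06) and CD70 (36.1 ± 4.83) overlapped. With ATRA and inhibitors, CD38 was at 44.3 ± 1.61, CD44 at 28.6 ± 1.62 and CD70 at 16.8 ± 1.76, and with AM80 and inhibitors these were 38.3 ± 2.03, 25.9 ± 0.559 and 17.7 ± 1.42 (SD, n = 3 each). On this scale CD38 thus moved from the fifth place of the 6 tested antigens to the first in mean level in all treated groups. CD70 moved from the first to the third with inhibitors. In normalized counts, without division by length, the mean of CD44 (4870) was above that of CD38 (4800) with AM80. In the other treated groups the CD38 mean was above the CD44 mean.

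**Figure D3:**
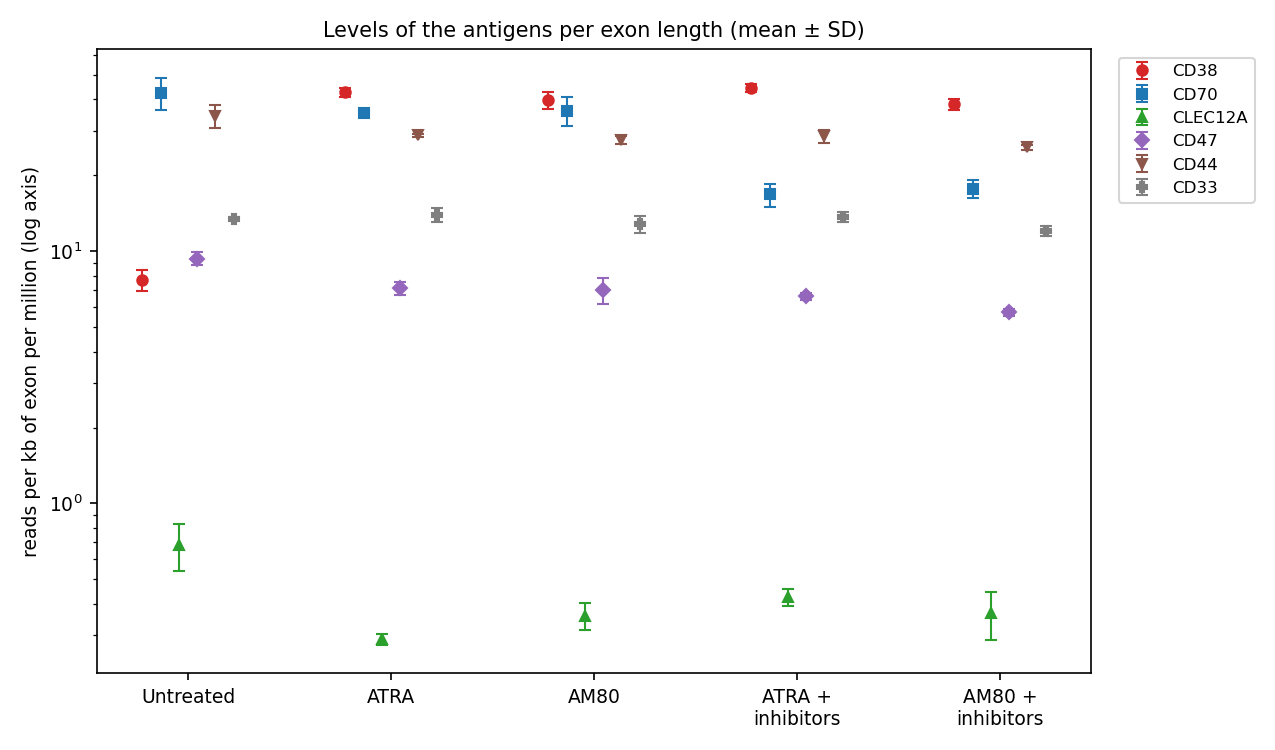
Mean level ± SD of the 6 tested antigens on the scale of reads per exon length and depth (log axis) in the 5 groups (n = 4 for untreated, n = 3 otherwise). CD38 goes from 7.71 in untreated cells to 38.3 to 44.3 in treated cells, and CLEC12A stays below 1 in every group.

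ATRA and AM80 were compared directly at the same dose and time, for 6 antigens without and with the inhibitors. No antigen was called in either comparison, and 0 had an unadjusted p-value under 0.05 without the inhibitors, with limma, edgeR and DESeq2 alike. For CD38 the difference of AM80 from ATRA was log2 -0.05 (95% confidence interval -0.20 to 0.10). The other intervals were -0.21 to 0.07 for CD33, -0.15 to 0.15 for CD44, -0.14 to 0.19 for CD47, -0.17 to 0.33 for CD70 and -0.12 to 0.82 for CLEC12A. In 5 of the 6, a difference of 1.5-fold lay outside the interval, the exception being CLEC12A. Over all genes, 0.0478% were called.

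With the inhibitors, 3 antigens had an unadjusted p-value under 0.05 by limma, and all 3 were lower with AM80 than with ATRA. These were CD38 (log2 -0.17, interval -0.32 to -0.03, adjusted p = 0.219), CD47 (log2 -0.17, -0.34 to -0.01, adjusted p = 0.259) and CD33 (log2 -0.15, -0.28 to -0.01, adjusted p = 0.256). None passed the adjustment, and 0.0% of all genes were called by limma (2656 genes at an unadjusted p under 0.05), none by edgeR and 16 by DESeq2. The interaction of retinoid and inhibitors also called 0.0% of genes by limma (2211 at an unadjusted p under 0.05), none by edgeR and 5 by DESeq2. None of the antigens was called in it or had an unadjusted p under 0.05 by any of these tools.

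The genes whose pattern over the 16 libraries was most like CD38, among 11300 genes averaging 50 normalized counts or more, were ARHGAP12, USP6NL, APBB1IP, MAN1A1 and FMNL2. Pearson correlations of log2 values were 0.996, 0.995, 0.995, 0.995 and 0.994, over libraries that share the same division into untreated and treated cells. MAN1A1, a mannosidase of the Golgi, went from 292.7 normalized counts in untreated cells to 1718 with ATRA and 1934 with AM80. APBB1IP, an adaptor in integrin activation, went from 1038 to 3696 and 3634.

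Ligands, receptors and partners of the antigens were taken from a list of 30 genes, of which 24 were tested. The list was chosen with earlier results of these data known, so a share above that of all genes is no test of it. With ATRA 4 were called higher and 1 lower (20.8% of the 24, beside 9.45% of all genes) and with AM80 4 and 0 (16.7%, beside 10.2%). With each combination 5 were called higher and 2 lower, and this share of 29.2% was near that of all genes (29.1% and 26.0%). The median log2 fold changes of the 24 were -0.01, 0.01, -0.06 and 0.03, beside medians over all genes of -0.02, -0.01, -0.003 and -0.003. Adding the inhibitors called 2 higher and 3 lower beside ATRA (20.8%, beside 19.5% of all genes), and 1 and 1 beside AM80 (8.33%, beside 15.7%).

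PECAM1 (CD31), an adhesion molecule that binds CD38, rose from 1090 ± 82.3 normalized counts to 2594 ± 77.9 with ATRA (log2 1.25, adjusted p = 7.33e-11) and 2671 ± 110 with AM80 (log2 1.29, adjusted p = 4.44e-11). NT5E (CD73), an ectoenzyme that makes adenosine, rose from 708.4 ± 40.2 to 1088 ± 80.6 with ATRA and to 1704 ± 53.7 with ATRA and inhibitors (log2 0.62 and 1.27). NAMPT, which makes the NAD+ precursor, was not called with the retinoids but rose on adding the inhibitors, from 676.8 ± 19.6 to 1771 ± 316 beside ATRA (log2 1.37, adjusted p = 1.14e-09). CEACAM1, a ligand of HAVCR2, rose from 9.57 ± 3.79 to 152 ± 15.7 with ATRA (log2 3.93), and THBS1, a ligand of CD47, from 33.1 ± 7.88 to 147 ± 1.80 (log2 2.15). SELPLG, the ligand of P-selectin, was called lower with ATRA (log2 -0.59) and with both combinations (log2 -0.87 and -0.79). With AM80 alone SELPLG was just under the fold limit (log2 -0.53, adjusted p = 3.1e-05). SIRPA, the receptor of CD47, averaged 4246 in untreated cells and was not called, and CD27, the receptor of CD70, had at most 8 reads in any library.

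Of 40 further surface antigens of AML, 28 were tested. This list, too, was chosen with earlier results known, so the same limit holds for its shares. With ATRA 4 were called higher and 0 lower (14.3% of the 28, beside 9.45% of all genes), and with AM80 5 and 0 (17.9%, beside 10.2%). ATRA with inhibitors gave 6 and 0, a share of 21.4% that was below the 29.1% of all genes, and AM80 with inhibitors gave 7 and 1, a share of 28.6% near the 26.0% of all genes. Their median log2 fold changes were 0.14, 0.06, 0.09 and 0.22. CCR1, a chemokine receptor, rose from 3037 ± 222 to 6741 ± 178 normalized counts with ATRA (log2 1.15), and CD86, a costimulatory ligand, from 304.9 ± 21.9 to 504.3 ± 15.5 with ATRA and 951.8 ± 44.5 with ATRA and inhibitors (log2 0.73 and 1.64). CD93 and the receptor CD244 rose with ATRA (log2 1.05 and 0.87) and were lower again on adding the inhibitors (log2 -0.62 and -1.11). IL1RAP, a co-receptor for interleukin-1, was not called with either retinoid alone and rose on adding the inhibitors, to 1003 ± 26.1 against 500.0 ± 27.6 with ATRA alone (95% confidence interval of the log2 difference 0.83 to 1.18, adjusted p = 1.27e-08). TFRC, the transferrin receptor, was the antigen of this list called lower against untreated cells, with AM80 and inhibitors (log2 -0.68). With ATRA and inhibitors TFRC was just under the fold limit (log2 -0.57, adjusted p = 7.9e-08). All values in this and the preceding paragraph are mean ± SD of 4 untreated or 3 treated libraries.

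**Figure D4:**
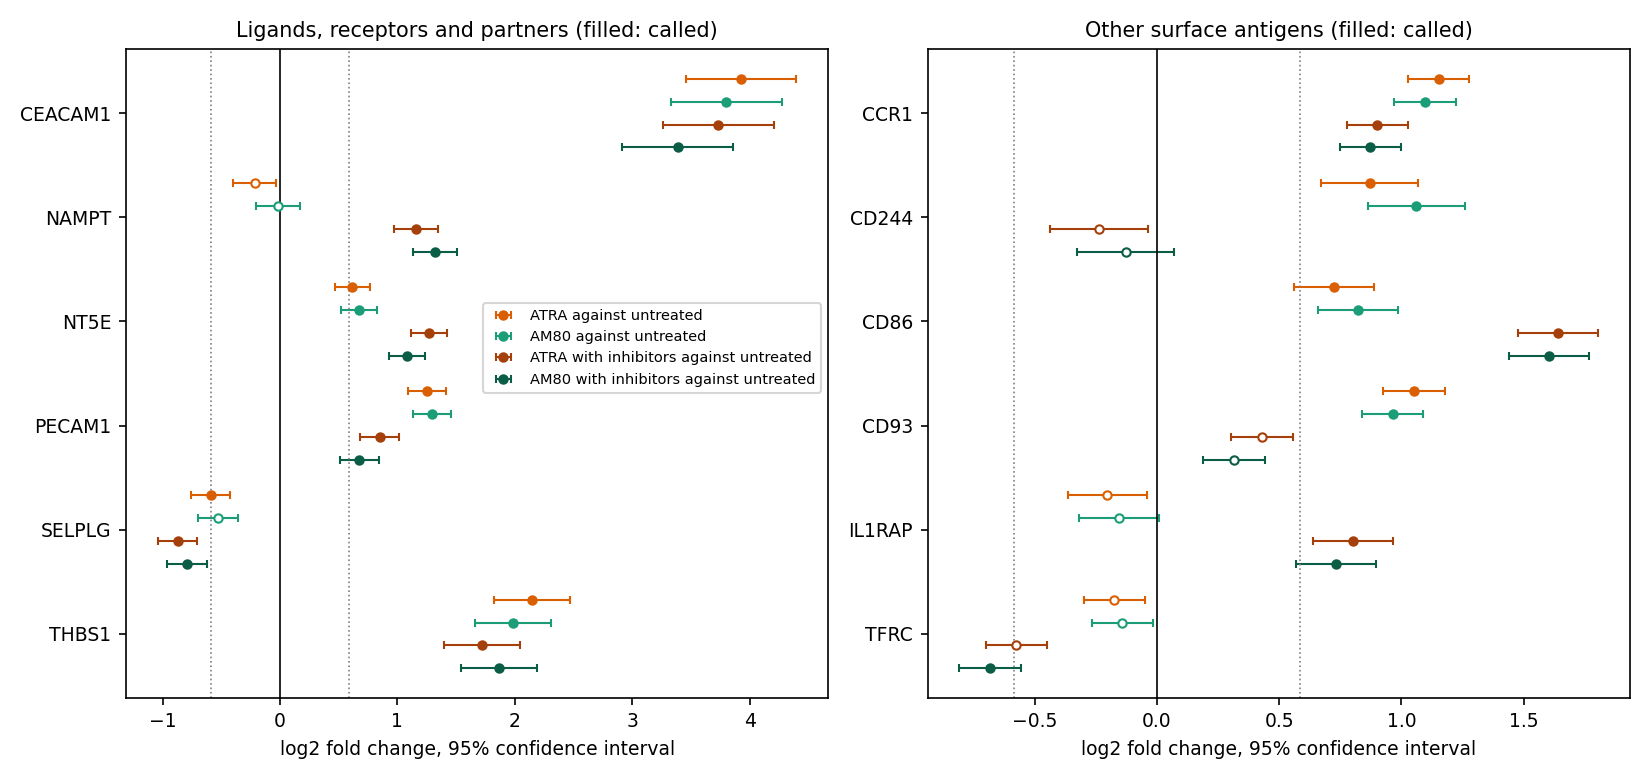
Log2 fold changes against untreated cells (horizontal axes) with 95% confidence intervals of the 6 genes named from each list, for partners of the antigens (left) and other surface antigens (right); filled points were called and dotted lines mark 1.5-fold. CEACAM1 shows changes of 3.39 to 3.93, and NAMPT and IL1RAP are called with the inhibitors and not with the retinoids alone.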

How the data were processed

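RNA of OCI-AML3 cells was sequenced by the authors, who, per the labels, used FastQC, cutadapt, STAR, featureCounts and DESeq2. The study's methods name isolation of total RNA and a stranded mRNA library kit, while the labels differ on the kit. The deposited signal values are DESeq2-normalized counts per gene. Genome build, annotation release and strand setting are not given in the sources used here. Identifiers were matched to symbols (62700 of 62700), and whole reads were recovered from the values (tolerance 0.01). Exon lengths came from GENCODE release 29.

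Groups followed the labels, with doses and time from the study's methods. Genes averaging 10 normalized counts or more (14643) were fitted on log2(value + 1) in limma 3.58.1 (R 4.3.3), with a mean-variance trend, all 16 libraries and 9 comparisons, each adjusted by Benjamini-Hochberg. The procedure was tested on simulated data. edgeR 4.0.16 (quasi-likelihood) and DESeq2 1.42.0 on the recovered reads were alternatives, with other pseudocounts, filters, scalings, thresholds, samples and a replicate block. The antigens and both lists were chosen with earlier results of these data known. Named genes were the 10 antigens, up to 6 called genes per list by smallest p, the 5 genes most correlated with CD38, and the 4 retinoid-induced genes. SIRPA, CD27, UBXN11, SLC25A6 and CD99 were named after their values were seen.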

Additional observations from a re-analysis of the deposited data

Results flagged for a closer look

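A single library stood apart for 1 antigen. CD52 was at 1.25 normalized counts in untreated replicate 3, from 1 read, and at 0 in the other 3 untreated libraries, a gap as large as the whole range of the group. Chance flags about 1 in 20 groups of values that vary continuously. With a read in a single library the gap always equals the range, so that rate does not apply here, and a single read gives no level.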

How the results depend on the processing

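Under 28 alternative settings, none of the 14 antigen differences followed over them changed direction, and 236 of 252 counts of called antigens stayed within 1.5 times the reported count. The 14 were the differences called under at least 1 setting, so they were picked for their size. The counts include both comparisons of AM80 with ATRA and the interaction, where 0 antigens were called under all 28 settings. CD38 was called against untreated cells under all 28 settings in the 4 comparisons (log2 2.32 to 2.72), and CD70 with both combinations (log2 -1.33 to -0.96). With a mean of at least 50, which removes CLEC12A, 1 antigen was called with ATRA, with AM80 and for the inhibitors beside ATRA. With no limit on the fold change, 4 were called with each retinoid and with the ATRA combination, and 5 with the AM80 combination. With an adjusted p under 0.01 and over 2-fold, 1 was called with AM80 and 0 for the inhibitors beside either retinoid, where CD70 lies under 2-fold. For the inhibitors beside ATRA, 1 was called with a pseudocount of 5, with no filter, with scaling to total reads and with DESeq2, and 1 to 2 with each library left out, since the CLEC12A call was lost. Its log2 difference ranged from 0.54 to 0.82 and its adjusted p reached 0.0635. The cause was not tested. Of the 54 differences of 6 antigens in 9 comparisons, 8 took another sign with scaling to total reads or quantile normalization, and 0 of these were called. The replicate numbers did not pair the libraries (correlations of deviations from -0.31 to 0.36, with 4 of 24 over 0.1). With a replicate block, 2, 2, 2 and 3 antigens were called against untreated cells, 2 and 1 for the inhibitors and 0 in the others, as without it. Depth limits CLEC12A (13 to 48 reads per library), CD34 and HAVCR2.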
